A study of Macaca mulatta with 4 samples.

Results

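The genes described here are 36 genes of DNA damage signalling and DNA repair in rhesus macaque (Macaca mulatta) morulae. They were listed by symbol, with earlier results of these data known, and are grouped here by role into 9 pathways. Of the 36, 35 matched an Ensembl macaque gene in a table of 21314 genes, each with 1 identifier. XRCC4, a partner of DNA ligase IV, had no matched identifier and was not analysed here. RNA was sequenced from 2 libraries of GG (gynogenetic) and 2 libraries of AG (androgenetic) morulae, the stage before the blastocyst cavity forms. A gynogenetic embryo carries nuclear chromosomes of maternal origin only, and an androgenetic embryo those of paternal origin only. The labels name no treatment, strain or other allele for either group, and do not state how the embryos were made. They leave unclear how many embryos entered a library and name no separate animals, so the p-values given here may reflect technical spread in part.

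Cells meet DNA damage with a layered system. The MRN complex and the kinases ATM and ATR sense breaks and stalled forks, CHEK1 and CHEK2 relay the signal, and breaks are then joined end to end or copied from an intact sister by homologous recombination. Mismatches, damaged bases and bulky lesions are removed by separate excision pathways. Early embryos divide quickly, begin with RNA and protein stored in the oocyte, and must also repair damage brought in by the gametes.

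The 4 libraries differed in depth and in marker genes. Totals were 21335918 and 29733977 estimated counts in GG replicates 1 and 2, and 14129608 and 19108735 in AG replicates 1 and 2. All 35 matched genes passed the filter on low counts, and the lowest count of any of them in a library was 33. Of the morula and blastocyst markers POU5F1, NANOG, TFAP2C, DPPA4, KRT18, GATA3, CDX2 and SOX2, 6 of 8 matched, and they summed to 813 and 1034 CPM (read counts scaled to a common library size) in GG and 538 and 604 CPM in AG. The 5 genome activation genes ZSCAN4, LEUTX, TPRX1, KLF17 and CCNA1 summed to 7.51 and 3.999 CPM in GG and to 2250 and 1433 CPM in AG. Blood cell markers (7 of 8 matched) summed to 14.6 and 17.5 CPM in GG and to 154 and 71.2 CPM in AG, of which PTPRC alone made 140 and 67.9 CPM. Cumulus cell markers (7 of 10 matched, FSHR at 0) summed to 2.68 and 11.1 CPM in GG and to 7.01 and 0.639 CPM in AG. Sperm markers (7 of 8 matched, with PRM2, TNP2, ODF1 and SMCP at 0) summed to 0 and 0.0673 CPM in GG and to 0.637 and 0.262 CPM in AG. Single markers went both ways. KRT18 stood at 163 and 347 CPM in GG and 41.5 and 13.6 CPM in AG, and LYZ, of the blood list, at 5.30 and 9.69 CPM in GG and 0.425 and 1.31 CPM in AG. TFAP2C stood at 47.5 and 60.8 CPM in GG and 103.5 and 113.4 CPM in AG, and DPPA4 at 15.6 and 12.01 CPM in GG and 62.4 and 49.4 CPM in AG. These genes, POU5F1, PTPRC and the 5 genome activation genes separated the groups in every comparison that follows, and their part in the results was not tested. In bulk RNA, fewer cells with a transcript and less of it per cell cannot be told apart.

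Of the 35 repair genes, 2 were higher in GG, 4 were lower in GG, and 29 were not called. PALB2 and NBN rose, and RAD52, XRCC2, LIG4 and MSH6 fell. Calls rest on edgeR's quasi-likelihood test over all 13227 genes tested, with the threshold at an adjusted p of 0.05. The 6 called genes are 17.1% of the repair genes tested, beside 12.9% of all genes tested. By direction, 6.34% of all genes were called higher and 6.58% lower. The share of repair genes called was thus near that of all genes. Their median log2 fold change, GG minus AG, was -0.11, against 0.04 over all genes. Differences between groups were smaller than over all genes by this measure: the median size of the log2 fold change, without regard to sign, was 0.52 for repair genes, against 0.80 over all genes. The 2 sets were not matched for level. A minimum mean of 10 CPM kept 32 of the 35 repair genes, but 7099 genes in all, beside 13227 with the main filter. The largest rise was 3.66-fold, in PALB2, and the largest fall 3.27-fold, in RAD52.

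**Figure D1:**
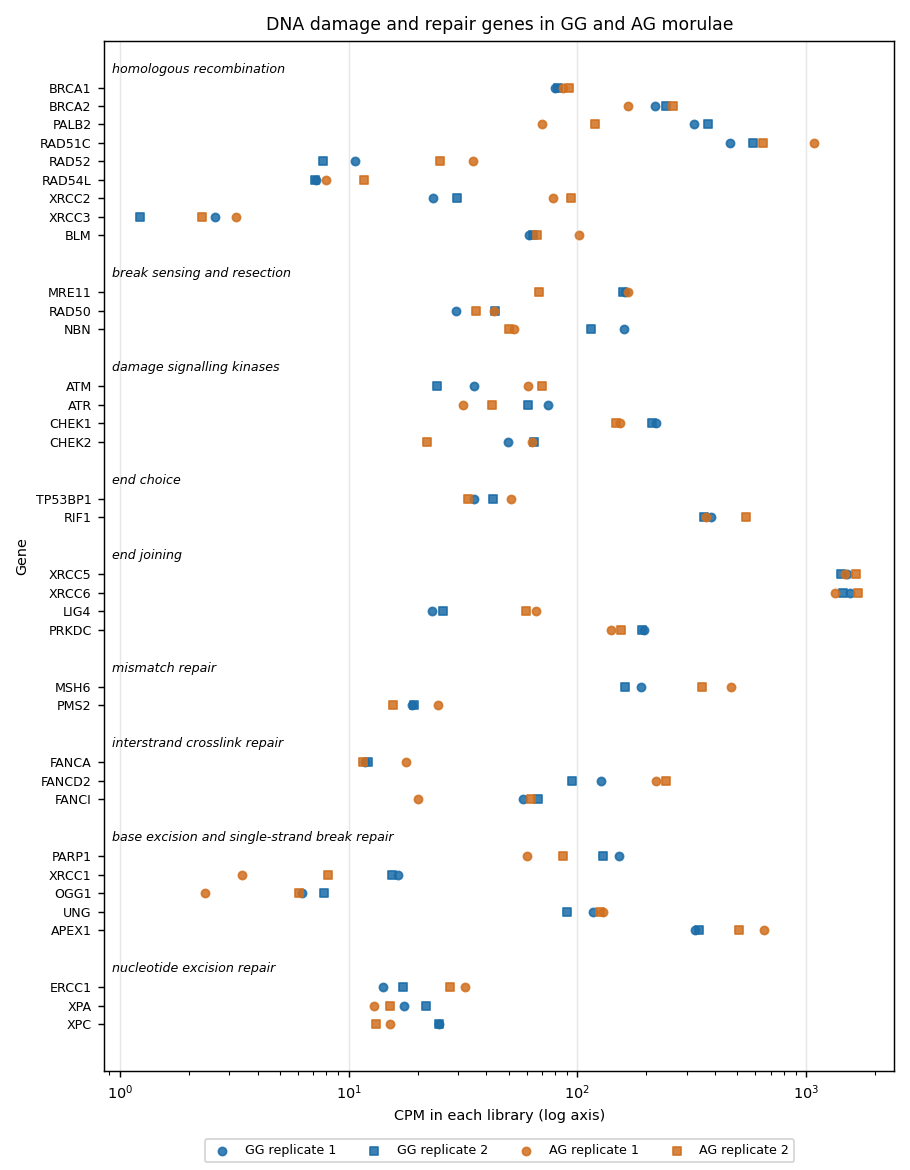
Level of each repair gene in each library, in CPM on a log axis, with genes down the page by pathway; blue marks are GG and orange marks AG libraries, circles replicate 1 and squares replicate 2. The GG marks of PALB2 and NBN lie to the right of their AG marks, those of RAD52, XRCC2, LIG4 and MSH6 to the left, and those of XRCC5 and XRCC6 lie among them.

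In 10 of the 35 genes both GG libraries lay above both AG libraries, as in 33.4% of all genes tested, and in 13 both lay below, as in 30.7% of all genes. Together that is 65.7%, beside 64.1% of all genes tested, so the share of repair genes with separate groups was near that of all genes. At an unadjusted p under 0.05 there were 13 repair genes (37.1%), beside 32.0% of all genes. DESeq2 called 8 repair genes, or 22.9%, beside 23.3% of all genes it tested. For 9 genes the 95% interval of the log2 fold change lay between -1 and 1, which bounds the estimated difference at under 2-fold. These were BRCA1, BRCA2, RAD50, TP53BP1, RIF1, XRCC5, XRCC6, PRKDC and UNG. Such an interval was found for 25.7% of the repair genes and 7.95% of all genes tested. The standard errors were smaller as well, with a median of 0.32 for repair genes and 0.52 for all genes. Here too the genes were not matched for level, and the repair genes were more often well covered. With either GG library left out, edgeR called 0 repair genes (5 at an unadjusted p under 0.05 in each fit), and 119 and 84 genes in all without GG replicates 1 and 2. The adjusted p of the 6 called genes then lay between 0.148 and 0.336. The spread then came from the AG pair alone, and the lone GG library was assumed to vary like it. With an AG library left out, it came from the GG pair alone, which was the narrower pair for 24 of the 35 genes. A p-value from such a fit therefore leaves out the AG spread.

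**Figure D2:**
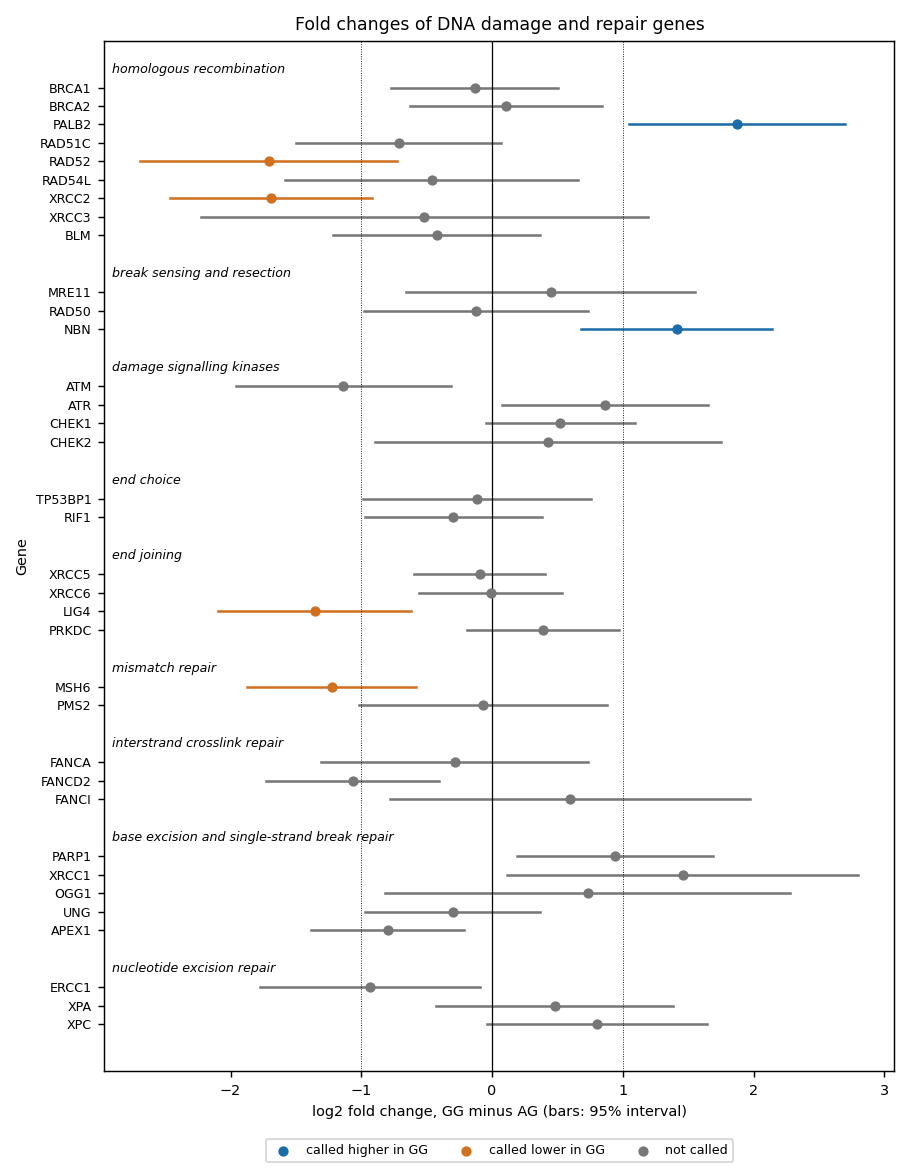
Log2 fold change, GG minus AG, of each repair gene (points) with its 95% interval (bars), by pathway; blue genes were called higher in GG, orange genes lower, grey genes were not called, and dotted lines mark 2-fold. PALB2 at 1.87 and RAD52 at -1.71 stand farthest from 0, and the intervals of XRCC5 and XRCC6 are among the narrowest.

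Homologous recombination copies a broken stretch from an intact sister chromatid. BRCA1 and BRCA2 bring the recombinase to the break, PALB2 bridges the pair, RAD51C, XRCC2 and XRCC3 help the recombinase filament form, and RAD52 anneals single strands. Of 9 genes, 1 was higher in GG, 2 were lower and 6 were not called, beside 12.9% called of all genes tested. So few genes give no firm share. PALB2 (ENSMMUG00000017304) stood at 323 and 371 CPM in GG and at 70.2 and 119 CPM in AG. Both GG libraries were far above both AG libraries (log2 fold change 1.87 ± 0.33 SE, adjusted p = 0.0286). Its partners were not called. BRCA1 stood at 79.8 and 82.6 CPM in GG and 86.3 and 91.9 CPM in AG, a log2 fold change of -0.13 with a 95% interval of -0.77 to 0.51. BRCA2 stood at 218 and 243 CPM in GG, within the 167 and 261 CPM of AG, with an interval of -0.63 to 0.84. The groups of BRCA2 overlapped.

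The other called genes of the pathway were lower in GG. XRCC2 (ENSMMUG00000002878) stood at 23.4 and 29.7 CPM in GG and at 77.9 and 94.1 CPM in AG. It was 3.24-fold lower in GG, with groups well apart (adjusted p = 0.0302; log2 fold change -1.69 ± 0.31 SE). RAD52 (ENSMMUG00000018654) stood at 10.6 and 7.74 CPM in GG and at 35.0 and 24.99 CPM in AG (log2 fold change -1.71 ± 0.40 SE, adjusted p = 0.0476). The call of RAD52 was also lost without AG replicate 1 (edgeR adjusted p = 0.0583). Its span overlaps that of WNK1 in a RefSeq gene table, and the strand setting of the counting is not given, so reads of the 2 genes may not be separated. WNK1 itself had a log2 fold change of -0.18 ± 0.43 SE and was not called. RAD51C, which works in separate complexes with XRCC2 and with XRCC3, stood at 465 and 586 CPM in GG and at 1079 and 646 CPM in AG. Both GG libraries were lower, but AG replicate 1 set most of the distance. The log2 fold change of RAD51C was -0.71 with all libraries (edgeR adjusted p = 0.185). It was -0.31 without AG replicate 1 and -1.05 without AG replicate 2. BLM, a helicase that dissolves crossed strands, RAD54L, a motor that remodels the filament, and XRCC3 had log2 fold changes of -0.42, -0.46 and -0.52. XRCC3 was thinly covered, with 55 and 36 counts in GG and 45 and 45 in AG, and its interval ran from -2.22 to 1.19.

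**Figure D3:**
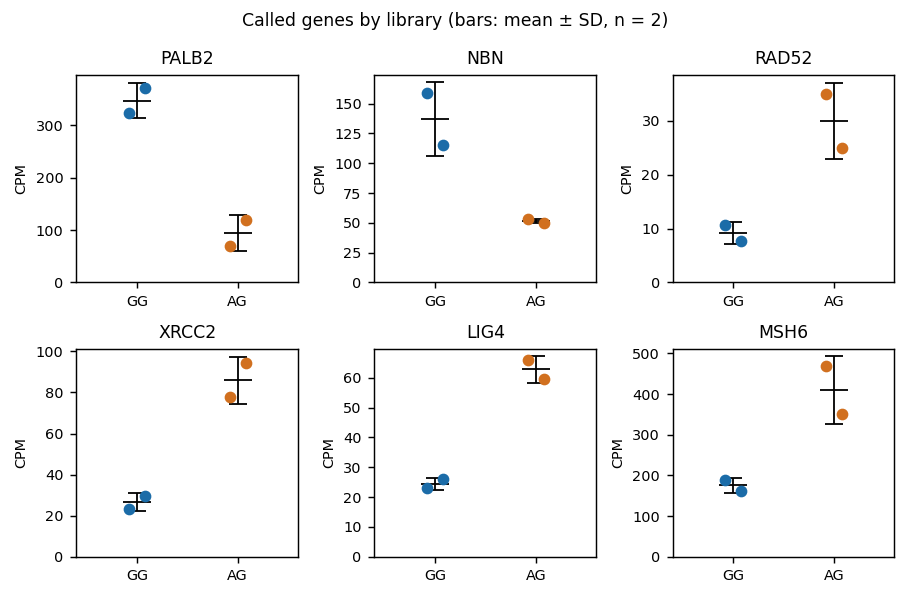
CPM of the 6 called repair genes by library, with GG left and AG right in each panel, 1 point per library, replicate 1 left of replicate 2, and bars for the mean ± SD (n = 2). PALB2 and NBN stand higher in GG and RAD52, XRCC2, LIG4 and MSH6 lower, with no overlap between groups in any panel.

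The MRN complex of MRE11, RAD50 and NBN binds broken ends, activates ATM and starts the trimming of ends. Of its 3 genes, 1 was called, beside 12.9% of all genes tested, and 3 genes give no firm share. NBN (ENSMMUG00000014519), the subunit that recruits ATM, stood at 159 and 115 CPM in GG and at 52.9 and 50.2 CPM in AG. It was 2.66-fold higher in GG (adjusted p = 0.0382; log2 fold change 1.41 ± 0.29 SE). MRE11, the nuclease, stood at 161 and 159 CPM in GG and at 167 and 68.1 CPM in AG. The GG libraries and AG replicate 1 were nearly level, and only AG replicate 2 was low. The log2 fold change of MRE11 was 1.22 without AG replicate 1 and -0.08 without AG replicate 2. RAD50, the ATPase that tethers ends, stood at 29.4 and 43.5 CPM in GG and at 43.3 and 36.1 CPM in AG, with overlapping groups.

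Of the 4 signalling kinase genes, 0 were called in either direction by edgeR, while DESeq2 called ATM alone (adjusted p = 0.0176). An unadjusted edgeR p under 0.05 was found for 2 of the 4, beside 32.0% of all genes tested. ATM, the kinase of double-strand breaks, stood at 35.2 and 24.4 CPM in GG and at 61.1 and 70.1 CPM in AG. ATR, the kinase of stalled forks, stood at 74.4 and 60.8 CPM in GG and at 31.8 and 42.5 CPM in AG. The groups were apart for both genes and in opposite directions. ATM had a log2 fold change of -1.14 ± 0.33 SE (adjusted p = 0.0766) and ATR one of 0.86 ± 0.32 SE (adjusted p = 0.128). The log2 fold change of ATR was 0.66 without AG replicate 1 and 1.07 without AG replicate 2. CHEK1, which ATR activates, stood at 220 and 211 CPM in GG and at 153 and 147 CPM in AG. Its libraries differed little within a group, and its log2 fold change was 0.52 with an interval of -0.05 to 1.09. CHEK2, which ATM activates, stood at 49.9 and 64.5 CPM in GG and at 63.3 and 21.99 CPM in AG. Only AG replicate 2 was low. The log2 fold change of CHEK2 was 1.37 without AG replicate 1 and -0.16 without AG replicate 2.

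TP53BP1 and RIF1 protect broken ends and so favour end joining over recombination. TP53BP1 had a log2 fold change of -0.11 and RIF1 one of -0.30, their groups overlapped, and both intervals lay within 2-fold. The end joining genes held both the steadiest and one of the called genes. XRCC5 and XRCC6 encode the Ku80 and Ku70 subunits of the ring that caps broken ends. XRCC5 stood at 1513 and 1422 CPM in GG and at 1483 and 1651 CPM in AG. XRCC6 stood at 1556 and 1451 CPM in GG and at 1339 and 1693 CPM in AG. Their groups overlapped, and the intervals of their log2 fold changes ran from -0.59 to 0.40 and from -0.56 to 0.53. PRKDC, the kinase that Ku recruits, was at 0.39, with an interval of -0.19 to 0.97.

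LIG4 (ENSMMUG00000008874), the ligase that seals the joined ends, stood at 23.1 and 25.9 CPM in GG and at 66.1 and 59.6 CPM in AG. Both GG libraries were lower, by 2.56-fold (log2 fold change -1.36 ± 0.30 SE, adjusted p = 0.0424). The fit that added the replicate number as a block left LIG4 just short of the threshold (adjusted p = 0.0555).

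MSH6 (ENSMMUG00000022842), which helps to recognise mismatched bases, stood at 189 and 162 CPM in GG and at 470 and 352 CPM in AG. It was 2.34-fold lower in GG (adjusted p = 0.0396; log2 fold change -1.23 ± 0.26 SE), with both GG libraries below both AG libraries. PMS2, an endonuclease later in the same pathway, stood at 18.9 and 19.4 CPM in GG and at 24.5 and 15.6 CPM in AG. The human orthologues of PMS2 and CHEK2 have near-identical copies elsewhere in the genome, so the estimated counts of both genes are uncertain.

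Crosslink repair turns on the attachment of ubiquitin to FANCD2 and FANCI, which form a clamp on DNA, by a core complex that holds FANCA. None of the 3 genes was called by edgeR, and DESeq2 called FANCD2. An unadjusted edgeR p under 0.05 was found for 1 of them, FANCD2, beside 32.0% of all genes tested. FANCD2 stood at 127 and 94.8 CPM in GG and at 221 and 243 CPM in AG. The groups were apart, and its log2 fold change of -1.07 ± 0.27 SE fell just short of the threshold (adjusted p = 0.0548). FANCD2 passed in 6 of 11 alternatives, DESeq2 among them (adjusted p = 0.0123). The 6 include both fits without an AG library, whose p-values leave out the AG spread. FANCI stood at 57.9 and 67.5 CPM in GG and at 20.02 and 63.0 CPM in AG. Here only AG replicate 1 was low. The log2 fold change of FANCI was 1.63 without AG replicate 2 and -0.01 without AG replicate 1. FANCA had a log2 fold change of -0.29 with overlapping groups.

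In base excision repair, OGG1 removes oxidised guanine and UNG removes uracil, APEX1 cuts the emptied site, and PARP1 and XRCC1 detect the nick and assemble the enzymes that close it. None of the 5 genes was called by edgeR or DESeq2, although 3 had an unadjusted p under 0.05, beside 32.0% of all genes tested. The nick-binding pair lay higher in GG. PARP1 stood at 152 and 129 CPM in GG and at 59.9 and 86.1 CPM in AG (log2 fold change 0.94 ± 0.30 SE, adjusted p = 0.0956). XRCC1 stood at 16.4 and 15.4 CPM in GG and at 3.42 and 8.13 CPM in AG (log2 fold change 1.46 ± 0.54 SE, adjusted p = 0.131). XRCC1 was thinly covered in AG, with 48 and 160 counts. APEX1 lay on the other side, at 326 and 342 CPM in GG and at 652 and 509 CPM in AG (log2 fold change -0.80 ± 0.24 SE, adjusted p = 0.0796). Without AG replicate 2, the log2 fold changes of PARP1, XRCC1 and APEX1 were 1.21, 2.20 and -0.98. Without AG replicate 1 they were 0.70, 0.96 and -0.62. UNG had a log2 fold change of -0.30 and an interval of -0.97 to 0.37. OGG1 stood at 6.22 and 7.77 CPM in GG and at 2.35 and 6.04 CPM in AG, the latter from 33 and 119 counts. Its span overlaps that of CAMK1, which had 52.4 and 77.1 CPM in GG and 0.570 and 0.406 CPM in AG, and whether reads of CAMK1 entered the OGG1 counts was not tested.

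In nucleotide excision repair, XPC finds the distortion made by a bulky lesion, XPA checks it, and ERCC1 with ERCC4 cuts beside it. None of the 3 genes was called by edgeR or DESeq2. An unadjusted p under 0.05 was found for 1 of them, ERCC1, beside 32.0% of all genes tested. ERCC1 stood at 14.1 and 17.2 CPM in GG and at 32.1 and 27.7 CPM in AG (log2 fold change -0.93 ± 0.34 SE, adjusted p = 0.125). Its span overlaps that of POLR1G, which had 79.9 and 61.9 CPM in GG and 132.5 and 76.3 CPM in AG. Whether reads of POLR1G entered the ERCC1 counts was not tested. XPC stood at 24.7 and 24.8 CPM in GG and at 15.2 and 13.2 CPM in AG (log2 fold change 0.81 ± 0.34 SE, adjusted p = 0.170). XPA had a log2 fold change of 0.48. For all 3 genes the groups were apart, as they were for 64.1% of all genes tested.

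Repair genes varied more between the AG libraries than between the GG libraries. For 24 of the 35 genes the AG pair differed by more than the GG pair on a log2 scale, as it did for 8573 of all 13227 genes tested. The median difference within a pair was 0.22 in GG and 0.41 in AG, against 0.32 and 0.52 over all genes. FANCI, CHEK2 and MRE11 had the widest AG pairs. AG replicate 2 was above replicate 1 by 1.63 on the log2 scale for FANCI, and its log2 ratio to replicate 1 was -1.50 for CHEK2 and -1.29 for MRE11. In the GG pair the widest difference was -0.85, for the thinly covered XRCC3.

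Genes whose products work as pairs were also compared by their ratio. Ratios of CPM within a library do not depend on how libraries are scaled. The ratio itself also reflects transcript length, so only its difference between groups is described. The 13 pairs, which include BARD1, ATRIP and LIG3 from outside the genes named by rule, were chosen after their values were seen. With 2 libraries against 2, the smallest p an exact two-sided permutation test allows is 0.333, so these ratios carry no call. The ratio of ATM to ATR was 0.473 and 0.402 in GG and 1.92 and 1.65 in AG. The ratio of PALB2 to BRCA2 was 1.48 and 1.53 in GG and 0.421 and 0.456 in AG. In both pairs the 2 libraries of a group lay close together and the groups far apart. The ratio of FANCD2 to FANCI was 2.19 and 1.403 in GG and 11.0 and 3.86 in AG. The ratio of LIG4 to XRCC5 was 0.0153 and 0.0182 in GG and 0.0446 and 0.0361 in AG. The ratio of XRCC1 to LIG3, the ligase it stabilises, was 0.597 and 0.572 in GG and 0.202 and 0.259 in AG. The ratio of PALB2 to BRCA1 was 4.05 and 4.49 in GG and 0.814 and 1.30 in AG, and that of NBN to RAD50 was 5.43 and 2.65 in GG and 1.22 and 1.39 in AG. The groups were also apart for BARD1 to BRCA1, XRCC2 to RAD51C and XPC to CETN2, each lower in GG. That makes 10 of the 13 pairs, and in the other 3 the groups overlapped. Ratios of other gene pairs were not counted, so the tally cannot be set against a general share. The ratio of XRCC5 to XRCC6 was 0.972 and 0.980 in GG and 1.11 and 0.9748 in AG, and that of ATR to ATRIP, its obligate partner, was 2.97 and 2.72 in GG and 2.95 and 2.21 in AG. The ratio of NBN to MRE11 stood at 0.988 and 0.725 in GG and 0.318 and 0.738 in AG, where AG replicate 1 alone was low.

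**Figure D4:**
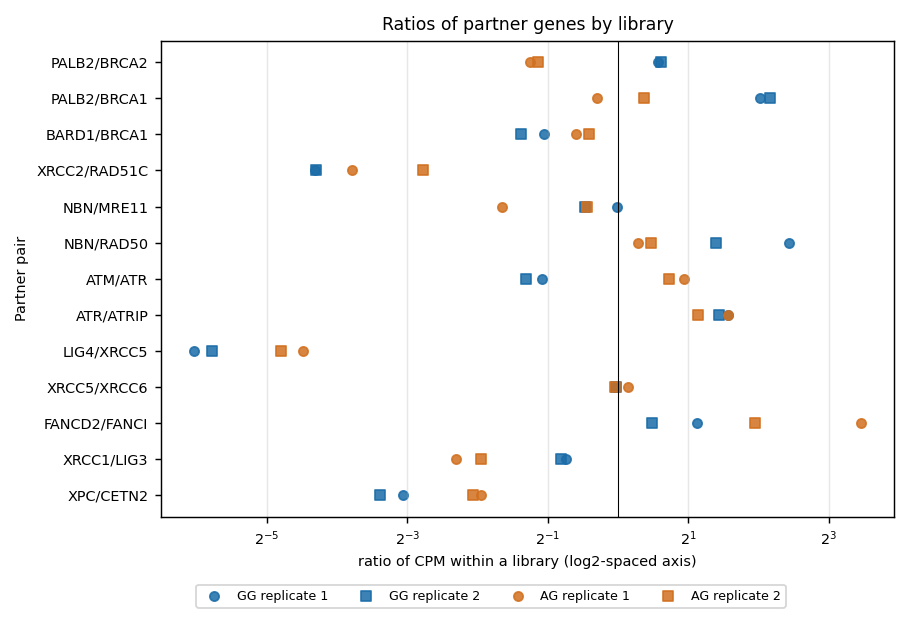
Ratio of CPM of 13 pairs of partner genes within each library, on a log2-spaced axis, with GG libraries in blue and AG libraries in orange (circles replicate 1, squares replicate 2). ATM to ATR lies below 1 in both GG libraries and above 1 in both AG libraries, PALB2 to BRCA2 the reverse, and XRCC5 to XRCC6 near 1 in all 4.

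A wider list of 116 other repair genes, chosen by pathway role, was read in the same fit. Of these, 100 matched and 98 were tested. In GG, 3 were higher, 6 were lower and 89 were not called, which is 9.18% called beside 12.9% of all genes tested. Their median log2 fold change was -0.03. The largest change was in RNF168, the ubiquitin ligase that marks chromatin beside a break so that TP53BP1 can bind. RNF168 stood at 16.2 and 10.2 CPM in GG and at 134 and 115 CPM in AG. It was 9.44-fold lower in GG (adjusted p = 0.0125; log2 fold change -3.24 ± 0.37 SE). CLSPN, the adaptor through which ATR activates CHEK1, stood at 57.7 and 37.2 CPM in GG and at 320 and 175 CPM in AG (log2 fold change -2.38 ± 0.41 SE, adjusted p = 0.0277). For both genes the GG libraries were far below the AG libraries.

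EXO1, a nuclease of end trimming and mismatch repair, stood at 69.1 and 72.1 CPM in GG and at 197 and 245 CPM in AG and was 3.13-fold lower in GG. RAD54B, a relative of RAD54L, MAD2L2, a subunit of shieldin and of the polymerase zeta of lesion bypass, and GTF2H3, a subunit of TFIIH, had log2 fold changes of -1.18, -1.23 and -1.33 (adjusted p = 0.0476, 0.0409 and 0.0310). In the RefSeq table the span of RAD54B overlaps that of FSBP and the span of MAD2L2 that of DRAXIN, so the counts of both are uncertain. Upper-quartile normalization ended the call of RAD54B (adjusted p = 0.0514), and the replicate block ended those of RAD54B and MAD2L2 (0.0565 and 0.0535). Those higher in GG act in 3 different pathways. POLK, a polymerase that copies past bulky lesions, stood at 67.6 and 72.9 CPM in GG and at 15.4 and 17.1 CPM in AG, 4.32-fold higher in GG. CETN2, a calcium-binding partner of XPC also known from centrosomes, stood at 205 and 260 CPM in GG and at 58.4 and 55.0 CPM in AG, 4.11-fold higher. NEIL3, a glycosylase of oxidised bases, stood at 15.4 and 34.8 CPM in GG and at 4.49 and 5.74 CPM in AG. NEIL3 lost its call (adjusted p = 0.0476) after thinning to equal depth (0.0515) and without AG replicate 1. Its log2 fold change was 2.77 without GG replicate 1 and 1.56 without GG replicate 2. As with the 6 called genes above, no call of the wider list held with either GG library left out. The spread then came from the AG pair alone.

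In crosslink repair and end joining, pathways of the wider list without a call, the gene with the smallest p lay lower in GG. USP1, which removes ubiquitin from FANCD2, had a log2 fold change of -1.09 (adjusted p = 0.0514) and passed in 5 of 11 alternatives. The 5 include the fit without AG replicate 2. In the RefSeq table the span of USP1 overlaps that of KANK4, so the counts of USP1 are uncertain too. NHEJ1, which aligns broken ends with XRCC4 and LIG4, was at -1.28 (adjusted p = 0.130). By pathway, the wider list's 18 tested genes of homologous recombination had 14 below 0 and a median of -0.56 on the log2 scale, and its 12 of nucleotide excision repair had 8 above 0 and a median of 0.51. The medians of the other pathways were -0.23 for damage signalling and end choice, 0.14 for end joining, -0.46 for mismatch repair, -0.06 for crosslink repair, 0.12 for base excision repair and 0.30 for translesion synthesis. These are descriptions, beside a median of 0.04 and 6467 of 13227 genes below 0 over all genes tested.

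**Figure D5:**
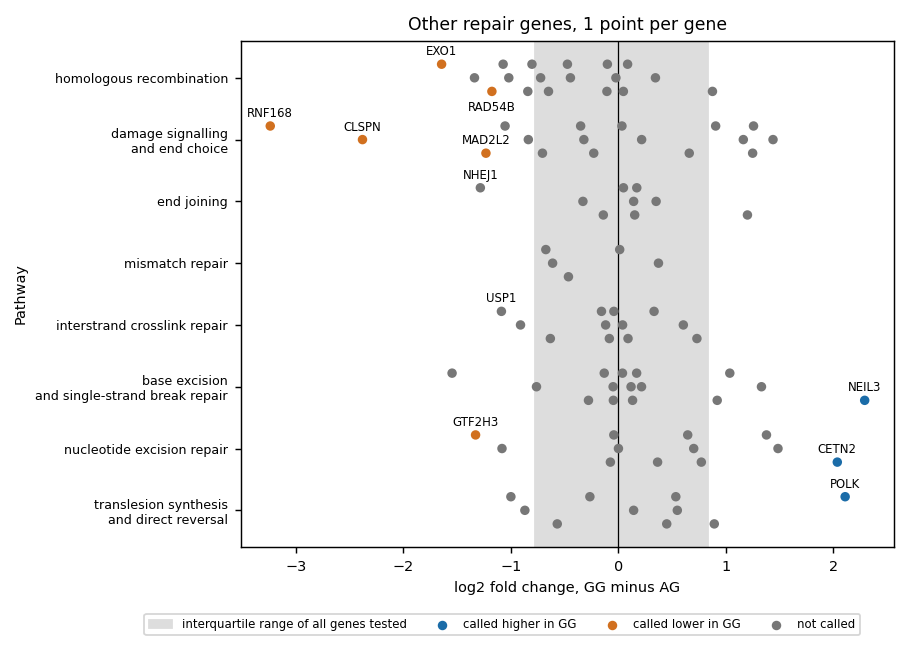
Log2 fold change, GG minus AG, of 98 other repair genes by pathway, 1 point per gene, with called genes in blue (higher in GG) or orange (lower) and the named genes labelled; points are spread vertically only for legibility, and the grey band is the interquartile range of all genes tested. RNF168 at -3.24 and CLSPN at -2.38 lie farthest left, and NEIL3, POLK and CETN2 lie above 2.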

How the data were processed

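RNA-seq of 2 GG and 2 AG morula libraries was analysed. The authors deposited estimated counts per macaque gene, with no scaling to depth: totals differ between libraries, and 30.0% to 32.2% of a library's values are not whole. Per the submitters' processing notes, Trim Galore, STAR 2.6.0c, Salmon 0.12.0 and rheMac8 were used, in roles and an order not stated. Annotation, strand setting and filters were not given in the sources used here. cDNA was amplified with a kit for very low input, per the labels' protocols, and no molecular identifiers are named.

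Symbols were matched by gene identifier for 14654 genes (68.8%). Spans that overlap were read from a RefSeq table of assembly T2T-MMU8v2.0, a build other than that of the counts, and its coordinates are not given. There 9 of the 36 genes overlap another coding gene: BRCA1, RAD52, RAD54L, XRCC3, FANCA, FANCI, OGG1, APEX1 and ERCC1. Their counts may be uncertain for that reason. Rounded counts were tested with edgeR 4.0.16 in R 4.3.3, with filterByExpr (minimum count 10 and total 15), TMM scaling, the quasi-likelihood F test on group alone, and Benjamini-Hochberg adjustment over all genes tested. Standard errors and 95% intervals are those implied by the F statistic. CPM of tested genes are counts scaled to TMM-adjusted totals of tested genes; marker sums are scaled to the library total. Ratios between 2 libraries of a group add 0.5 CPM. DESeq2 1.42.0, 2 other normalizations, 2 other filters, thinning, a replicate block and leaving out each library were the alternatives. The script was tested on simulated data. All listed genes are named, with each other repair gene that was called or, in a pathway with none, the gene with the smallest p; 1 such gene is not reported here. The genes and lists were chosen with earlier results of these data known.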

Additional observations from a re-analysis of the deposited data

How the results depend on the processing

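The members called numbered 2 higher and 4 lower in GG. Leaving out each library in turn gave 0 to 6 higher and 0 to 7 lower, with 84 to 3786 genes called in all. The lowest counts were those without a GG library and the highest those without AG replicate 2. These fits tested 13948 to 14167 genes, and all 35 members in each. In each of these fits the spread came only from the group that kept both libraries. The counts therefore cannot show whether members were called more often than all genes. Among the other repair genes the same fits gave 0 to 10 higher and 0 to 14 lower, and the median log2 fold change of the members lay between -0.16 and -0.057. At an adjusted p under 0.1, 3 of the 35 members were higher and 7 lower in GG, beside 3163 genes called of all 13227 tested. Without a filter on low counts 2609 of 18261 genes tested were called. With DESeq2 3341 of 14366 were called (23.3%). Of the 98 other repair genes DESeq2 called 8 higher and 12 lower, so both their calls and those over all genes rose. Among the members, DESeq2 called 2 higher and 6 lower, with ATM and FANCD2 added to the 4.

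The replicate numbers were not shown to pair the libraries (correlation of deviations from the group means 0.0986, with 2 pairs only). With the replicate block 1697 genes were called, and 2 members were higher and 3 lower, LIG4 having lost its call. The 6 called members kept their direction in all 11 alternatives, which reuse the same libraries. Their groups did not overlap, so leaving out a library could hardly turn the direction. Among the members and named genes, those that turned were not called with all libraries. XRCC6 stood at 0.0024 with upper-quartile normalization. With each library left out in turn, the log2 fold change ranged from -0.19 to 0.45 for BRCA2, from -0.078 to 1.22 for MRE11, from -0.47 to 0.14 for RAD50 and from -0.16 to 1.37 for CHEK2. It ranged from -0.41 to 0.22 for TP53BP1, from -0.57 to 0.0026 for RIF1 and from -0.18 to 0.15 for XRCC6. It ranged from -0.38 to 0.28 for PMS2, from -0.58 to 0.048 for FANCA and from -0.015 to 1.63 for FANCI. The cause was not tested. Each group had 2 libraries, and the members' median log2 difference within a pair was 0.22 in GG and 0.41 in AG.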
